A study of Mus musculus with 27 samples.

Results

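The genes described here are 10 genes of the p53 pathway and of cell cycle arrest, namely Trp53, Mdm2, Cdkn1a, Cdkn2a, Cdkn2b, Ccng1, Zmat3, Phlda3, Gdf15 and Bbc3, taken by name from the 53379 genes of a raw count table. RNA came from hepatic stellate cells (HSCs) of male Balb/c mice, which were freed by liver perfusion, sorted on the signal that their stored retinoids give under ultraviolet light and collected without culture. Injury was induced with carbon tetrachloride (CCl4), a hepatotoxin given in mineral oil into the peritoneum at 0.5 µL per gram body weight. Healthy mice aged 10 to 12 weeks received nothing, so that no group received the oil alone (healthy, n = 4 libraries). Mice aged 10 to 12 weeks received 1 injection and were used 24 h (acute 24 h, n = 3), 72 h (acute 72 h, n = 4) or 7 d later (acute 7 d, n = 4). Mice aged 8 to 10 weeks at the start received semi-weekly injections for 4 weeks and were used 24 h (chronic 24 h, n = 4), 72 h (chronic 72 h, n = 4) or 14 d after the course (chronic 14 d, n = 4). Of the 10 genes, 9 passed the filter on low counts and were tested, and Cdkn2a did not.

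The protein p53, encoded by Trp53, is a transcription factor that accumulates after DNA damage and other stress and is controlled mostly through the stability of the protein, which RNA counts do not measure. It switches on genes that arrest the cell cycle, repair DNA or kill the cell, and also Mdm2, the ubiquitin ligase that marks p53 for destruction and so closes a feedback loop. Cyclin-dependent kinase inhibitors hold cells before S phase: Cdkn1a (p21) is the best known arrest gene downstream of p53, whereas Cdkn2a and Cdkn2b act on Cdk4 and Cdk6. In the liver, CCl4 is turned into radicals by hepatocytes, and HSCs respond by proliferating and depositing matrix.

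p53 binds a pair of half-sites, each of 10 bases, and the half-site consensus reads the same on both strands. It was searched for in windows of 300 bases around RefSeq transcript starts (GRCm38.p6; 250 bases lie before the start), of which 14 belong to 9 of the members, all but Zmat3. A half-site without mismatch stood in 4 of these 14 windows, and in 8.36% of all 32851 windows. Adjacent pairs with both cores intact and up to 3 mismatches, a tolerance chosen after the matches were seen, stood in 3 of the 14 windows and in 0.572% of all windows. The stretches are shown because they tell which members carry these letters next to a start. A link between these letters and the changes of the members was not tested. Capitals mark the matched bases.
Cdkn1a: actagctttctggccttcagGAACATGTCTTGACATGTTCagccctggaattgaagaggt
Bbc3: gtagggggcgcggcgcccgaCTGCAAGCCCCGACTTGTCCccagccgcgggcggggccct
Trp53: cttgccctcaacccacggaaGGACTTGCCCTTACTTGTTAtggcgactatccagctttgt
Mdm2: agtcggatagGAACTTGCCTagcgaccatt
Ccng1: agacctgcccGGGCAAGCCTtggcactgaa
The pair of Cdkn1a (chr17:29090928-29090947, plus strand, 1 mismatch) lay upstream of the gene, 51 to 32 bases before 1 of its RefSeq starts. The window of its other RefSeq start held no pair and no half-site. The pair of Bbc3 (chr7:16309486-16309505, plus strand, 3 mismatches) lay 97 to 78 bases before one of its RefSeq starts and inside an intron of the longer gene model of GENCODE M21. The pair of Trp53 (chr11:69580284-69580303, plus strand, 3 mismatches) and the single half-sites of Mdm2 (chr10:117710935-117710944, minus strand) and Ccng1 (chr11:40755462-40755471, minus strand) lay upstream of their genes. No such pair or half-site stood in the windows of Phlda3, Gdf15, Cdkn2a or Cdkn2b, which says only that these letters were not in these windows.

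Libraries held 6314801 to 13052838 counts, and 8 of the 27 formed a class of lower depth, namely the 4 of chronic 14 d together with the first 2 replicates at chronic 24 h and at chronic 72 h. Markers of HSCs such as Lrat, Des and Reln were detected in every group, with a summed level over 10 markers of 29064 to 48824 CPM (counts scaled to a common library size) in healthy and 15562 to 34590 CPM in injured libraries. Markers of other liver cells were present too and moved with the groups. The sum over 10 hepatocyte markers was 499 to 3280 CPM in healthy, 57.2 to 266 CPM in acute 24 h, 841 to 2196 CPM in acute 72 h, 1538 to 2639 CPM in acute 7 d, 463 to 1994 CPM in chronic 24 h, 2098 to 3721 CPM in chronic 72 h and 1637 to 7374 CPM in chronic 14 d libraries. All 10 hepatocyte markers fell at acute 24 h, and 2 of them, Slco1b2 and Akr1c14, were at 0 in every acute 24 h library. The sum over 10 macrophage markers was 155 to 614 CPM in healthy, 156 to 228 CPM in acute 24 h, 304 to 604 CPM in acute 72 h, 4070 to 10642 CPM in acute 7 d, 560 to 3756 CPM in chronic 24 h, 1000 to 2707 CPM in chronic 72 h and 784 to 1981 CPM in chronic 14 d libraries, with 9 of 10 markers higher than in healthy at acute 7 d, chronic 24 h and chronic 72 h, and Marco at 0 in every healthy library. The sum over 10 sinusoidal endothelial markers was 506 to 976 CPM in healthy, 504 to 573 CPM in acute 24 h, 213 to 372 CPM in acute 72 h, 393 to 1033 CPM in acute 7 d, 279 to 448 CPM in chronic 24 h, 439 to 663 CPM in chronic 72 h and 799 to 1068 CPM in chronic 14 d libraries. The sum over 10 cholangiocyte and mesothelial markers was 64.5 to 153 CPM in healthy, 96.5 to 205 CPM in acute 24 h and 72 h, 822 to 4827 CPM in acute 7 d, 625 to 1371 CPM in chronic 24 h, 306 to 913 CPM in chronic 72 h and 239 to 458 CPM in chronic 14 d libraries. Of its 8 tested genes only Spp1, which macrophages also express, passed at acute 7 d. The sum over 10 lymphocyte and neutrophil markers was 1.91 to 7.71 CPM in healthy, 2.98 to 18.8 CPM in acute 24 h and 72 h, 15.7 to 52.9 CPM in acute 7 d, chronic 24 h and chronic 72 h, and 61.0 to 81.4 CPM in chronic 14 d libraries. In bulk RNA, a change in the share of a cell type and a change in RNA per cell cannot be told apart.

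**Figure D1:**
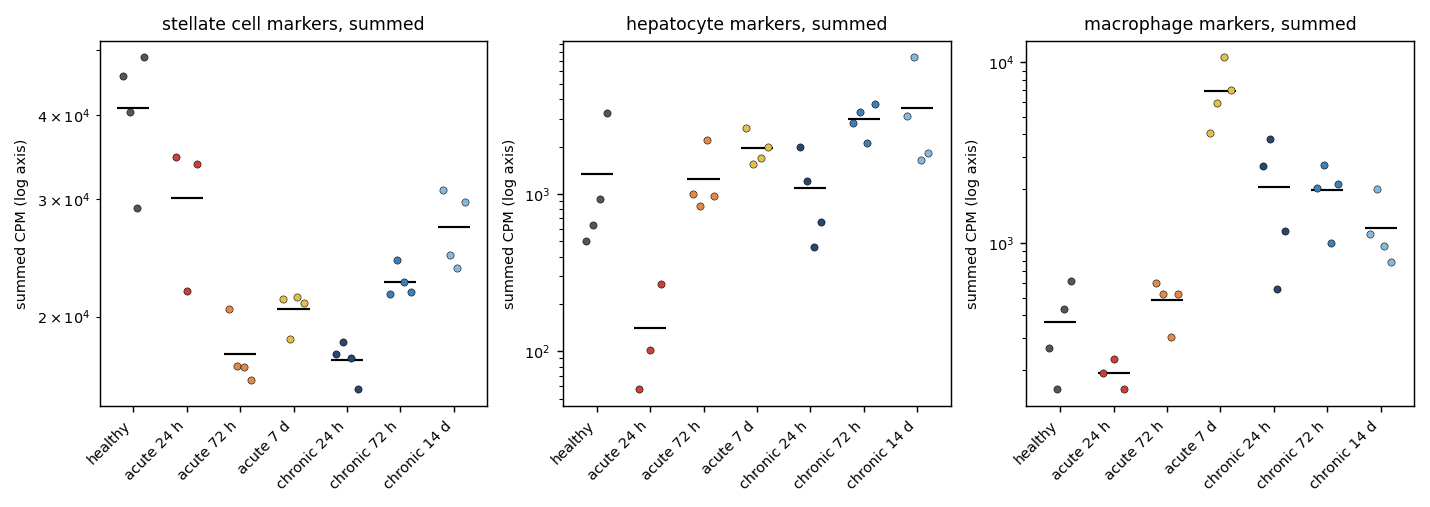
Summed CPM of 10 HSC, 10 hepatocyte and 10 macrophage markers in each library (points, log axis) by group, with the group mean as a line. The hepatocyte sum was lowest in the 3 acute 24 h libraries and the macrophage sum highest in the 4 acute 7 d libraries.

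Against healthy HSCs, the members did not move as one group. Phlda3 rose in 5 of the 6 injured groups, Bbc3 fell in 3, Cdkn1a rose only at acute 24 h among the tests that passed, Gdf15 rose at chronic 72 h, and Ccng1 fell at acute 24 h and rose at acute 7 d. Trp53, Mdm2, Cdkn2b and Zmat3 passed in none of the comparisons. A gene passed at a Benjamini-Hochberg adjusted p below 0.05 in edgeR's quasi-likelihood test over 18758 genes, and every adjusted p given here is from that test unless another is named. At acute 24 h 4 of the 9 members passed, 2 higher and 2 lower, where 33.7% of all genes did (15.5% higher, 18.1% lower). At acute 72 h 2 of 9 passed, against 21.9% of all genes (13.1% higher, 8.81% lower). At acute 7 d 2 of 9 passed, against 23.7% (13.1% higher, 10.6% lower).

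After the 4-week course, 2 of 9 passed at chronic 24 h, against 31% of all genes (17.1% higher, 14% lower), and 2 of 9 at chronic 72 h, against 20% (11% higher, 9% lower). At chronic 14 d 0 of 9 passed in edgeR and 0 in DESeq2, with 2 at an unadjusted p below 0.05 in edgeR. Of all genes 8.61% passed there (5.12% higher, 3.49% lower). All 4 chronic 14 d libraries and no healthy one were of the lower depth class, so group and depth coincide in this comparison. With depth class as a term 858 genes passed, in place of 1615. The members' shares were therefore near the background in every comparison with healthy. Their median log2 fold change lay between 0.04 at acute 24 h and 0.18 at chronic 14 d, where the median over all genes lay between -0.12 and 0.01.

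**Figure D2:**
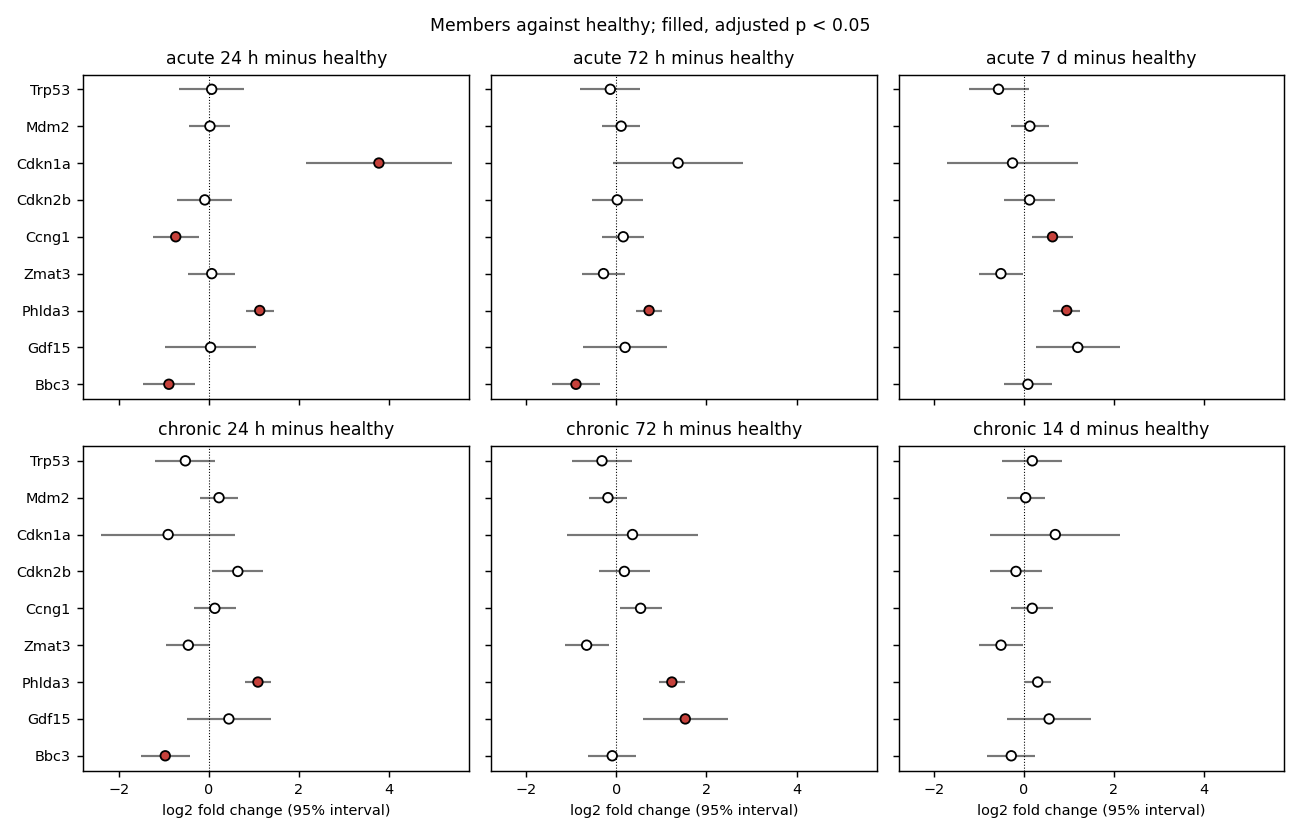
Log2 fold change of the 9 tested members against healthy (x axis) in the 6 injured groups, with the 95% interval as a bar; filled points passed at an adjusted p below 0.05. Phlda3 stood right of 0 in all panels and passed in 5 of 6, and Cdkn1a had the widest intervals.

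Injury groups were also compared with each other, to ask how a repeated injury differs from a first one and how the members moved with time. Chronic 24 h against acute 24 h had 2 of 9 members passing (21.3% of all genes), and chronic 72 h against acute 72 h had 3 of 9, all higher (14.9% of all genes, 7.12% higher and 7.8% lower). From 24 h to 72 h, 2 of 9 passed after 1 injection (23.1% of all genes) and 1 of 9 after the course (15.6%). From acute 72 h to acute 7 d 1 of 9 passed (12.7%), and from chronic 72 h to chronic 14 d 1 of 9 (1.58%). The step from 24 h to 72 h differed between the courses for 1 of 9 members, Cdkn1a, and for 10.8% of all genes. These comparisons share libraries with those against healthy and are no independent repeats of them.

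Levels between genes were compared as CPM per kilobase of exon. In healthy libraries Phlda3 was highest with 59.1 ± 6.01 CPM per kb (SD, n = 4), followed by Ccng1 with 33.2 ± 11.2, Mdm2 with 13.5 ± 4.19, Trp53 with 11.3 ± 2.47 and Bbc3 with 9.51 ± 3.01 CPM per kb. Below them were Gdf15 with 4.92 ± 2.73, Cdkn2b with 4.74 ± 1.82, Cdkn1a with 2.87 ± 2.02, Zmat3 with 1.33 ± 0.494 and Cdkn2a with 0.338 ± 0.317 CPM per kb. Healthy libraries of Mdm2, Trp53 and Bbc3 overlapped each other in this order, as did those of each neighbouring pair from Bbc3 down to Zmat3, whereas Phlda3 stood above all others in every library and Ccng1 above all but Phlda3.

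Trp53 itself differed little between groups next to its spread within them. Its level was 44.0, 44.3, 59.5 and 35.5 CPM in healthy and 30.7, 37.6 and 75.4 CPM in acute 24 h libraries. The acute 24 h group reached both below and above the healthy range. Group means ran from 30.9 CPM at acute 7 d to 52.1 CPM at chronic 14 d. The log2 fold change against healthy was 0.06 ± 0.35 (SE) at acute 24 h (95% interval -0.65 to 0.78) and -0.57 ± 0.32 at acute 7 d (-1.23 to 0.10, adjusted p = 0.217). At acute 7 d the 4 values, 33.0, 33.6, 23.5 and 33.6 CPM, were all below the lowest healthy one. At chronic 24 h the log2 fold change of Trp53 was -0.52 (adjusted p = 0.235), and with sequencing depth class as a term it was -0.89 and passed (adjusted p = 0.0402).

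Mdm2, the inhibitor of p53 and one of its targets, was the most even member over the groups, with means between 60.2 CPM at chronic 72 h and 80.2 CPM at chronic 24 h. Healthy libraries held 67.0, 57.5, 50.6 and 98.8 CPM. This range covered the libraries of all injured groups except the 48.0 CPM of 1 chronic 72 h library. The log2 fold change at acute 24 h was 0.03 ± 0.22 (95% interval -0.43 to 0.48), and the one farthest from 0 was 0.23 ± 0.20 at chronic 24 h (-0.20 to 0.65). Larger shifts than these intervals allow were not seen at either time.

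Other regulators of p53 were read from a list of 12 genes, all tested. At acute 24 h 2 rose and 0 fell, at acute 72 h 2 rose and 0 fell, at acute 7 d 1 rose and 2 fell, and at chronic 24 h 3 rose and 0 fell. One fell at chronic 72 h and none passed at chronic 14 d. In that order of groups, 15.5%, 13.1%, 13.1%, 17.1%, 11% and 5.12% of all genes rose. The shares of all genes that fell were 18.1%, 8.81%, 10.6%, 14%, 9% and 3.49%. Hipk2, a kinase that phosphorylates p53, rose at acute 24 h (log2 fold change 1.53, 47.1 ± 11.5 to 136 ± 22.0 CPM, SD) and at chronic 24 h (0.84). Ppp1r13l, which encodes the p53 inhibitor iASPP, rose at the same times by 2.39 and 2.97, from a mean of 1.52 CPM in healthy libraries to 8.08 and 12.0 CPM. The checkpoint kinase genes Chek1 and Chek2 rose at acute 72 h, by 3.12 and 3.23. Mdm4, a relative of Mdm2, fell at acute 7 d (-0.73), and the deubiquitinase gene Usp7 at acute 7 d (-0.84) and chronic 72 h (-0.61).

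Cdkn1a, the p21 gene, had the largest change of the members. Healthy libraries held 8.97, 4.29, 20.6 and 7.02 CPM and acute 24 h libraries 41.1, 346 and 33.9 CPM. All 3 acute 24 h libraries were above all healthy ones, and replicate 2 held 3987 counts, 8.41 times the CPM of the next library of its group. The log2 fold change was 3.78 ± 0.78 (SE, adjusted p = 0.000649). Without replicate 2 the acute 24 h mean went from 140 to 37.5 CPM and the log2 fold change to 1.87, which still passed (adjusted p = 0.0397).

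Later after the single injection Cdkn1a was uneven. Acute 72 h libraries held 35.7, 43.7, 2.76 and 23.7 CPM, so that 3 were above every healthy library and 1 below every one, and the log2 fold change of 1.37 ± 0.70 did not pass (adjusted p = 0.172). Acute 7 d libraries held 11.1, 5.58, 8.13 and 9.50 CPM, within the healthy range. From acute 24 h to acute 72 h Cdkn1a fell by 2.41 on the log2 scale (adjusted p = 0.0205). That call rested on acute 24 h replicate 2, without which the log2 fold change was -0.50 (adjusted p = 0.691).

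After the 4-week course, Cdkn1a did not pass against healthy at any time. Chronic 24 h libraries held 7.49, 7.28, 3.24 and 4.16 CPM, chronic 72 h libraries 24.5, 11.6, 11.5 and 5.17 CPM, and chronic 14 d libraries 15.9, 23.8, 15.8 and 10.7 CPM. All 3 groups overlapped healthy. At 24 h the repeated injury was lower than the first one by 4.68 ± 0.82 on the log2 scale, 25.6-fold (adjusted p = 0.000251), with no overlap between the 4 chronic and the 3 acute libraries. Without acute 24 h replicate 2 this difference was -2.77 and still passed (adjusted p = 0.00783).

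The step of Cdkn1a from 24 h to 72 h was thus -2.41 after 1 injection and 1.26 after the course, and the difference between the steps was 3.67 ± 1.035 (SE, adjusted p = 0.0236). It no longer passed without acute 24 h replicate 2 (1.76, adjusted p = 0.272), without chronic 72 h replicate 1 (3.18, adjusted p = 0.0591) or among the deeper libraries only (3.65, adjusted p = 0.152). Of 9212 genes at 10 CPM or more in acute 24 h replicate 2, 32 (0.347%) were at least 4 times both other libraries of the group. The same count was 44 of 9240 (0.476%) in replicate 1 and 50 of 9301 (0.538%) in replicate 3. It covers only genes that stood high in 1 library, not those that stood low. The sum over the 10 HSC markers was 21837 CPM in replicate 2, against 34590 and 33789 CPM in replicates 1 and 3. Why Cdkn1a was so high in replicate 2 was not tested.

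Over the 7 group means, the genes most like Cdkn1a among 10293 genes with a mean log2 CPM of 3 or more were Id1, Gm26802, Synpo, Tmem100 and Irak2, by the root mean square difference of centred group means (0.454, 0.537, 0.539, 0.550 and 0.550 log2 units). Id1, a helix-loop-helix inhibitor of differentiation, had a mean of 34.9 CPM in healthy, 196 CPM in acute 24 h, 46.1 CPM in acute 72 h and 27.5 CPM in chronic 24 h libraries. Likeness over 7 means is a description and rests for Cdkn1a on its acute 24 h mean.

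Genes of DNA replication and division were set beside Cdkn1a. The summed level of 16 S phase and mitosis genes was 139, 172, 184 and 145 CPM in healthy and 143, 131 and 117 CPM in acute 24 h libraries, and 735, 688, 1041 and 1191 CPM in acute 72 h libraries. All acute 72 h sums were above those of every other group. At acute 24 h 0 of the 16 genes rose and 3 fell (Top2a -1.99, Mki67 -1.95, Mcm3 -0.56), at acute 72 h 15 rose and 0 fell (median log2 fold change 3.45, 0.00 over all genes), and at acute 7 d 9 rose and 1 fell. Examples at acute 72 h were Plk1 (4.95), Aurkb (4.36) and Ccnb1 (4.29), which drive mitosis. At chronic 24 h 2 rose and 3 fell, and 0 rose and 1 fell at both later times. At 72 h 14 of the 16 were lower after the course than after 1 injection. The acute 72 h library with the lowest Cdkn1a, replicate 3, held the second highest sum of these genes. It also held the highest hepatocyte marker sum of its group (2196 CPM). Replicate 4, with the highest sum of these genes, held 23.7 CPM of Cdkn1a, above every healthy library. A link between Cdkn1a and these genes was not tested.

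**Figure D3:**
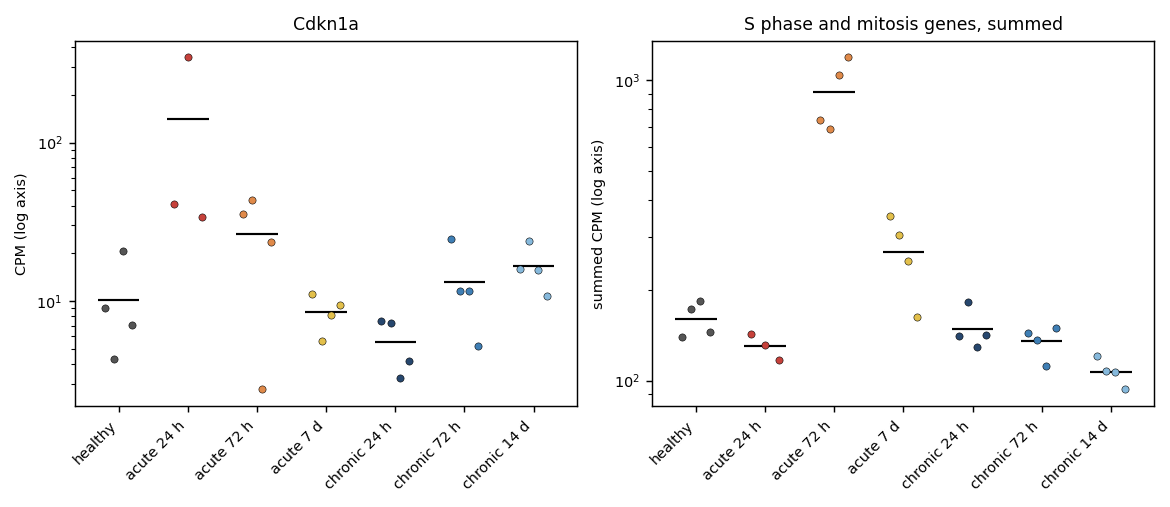
Cdkn1a (left, CPM) and the summed CPM of 16 S phase and mitosis genes (right) in each library by group, both on log axes, with the group mean as a line. Cdkn1a was highest in the 3 acute 24 h libraries apart from 2 acute 72 h libraries that lay in their range, and the summed level was highest in the 4 acute 72 h libraries.

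Among 12 G1 cyclins, cyclin-dependent kinases and pocket proteins, on which these inhibitors act, 3 rose and 3 fell at acute 24 h, 6 rose and 1 fell at acute 72 h, 3 rose and 2 fell at acute 7 d, 4 rose and 1 fell at chronic 24 h, 3 rose and 1 fell at chronic 72 h and 1 rose and 3 fell at chronic 14 d. Shares of all genes that rose were 15.5%, 13.1%, 13.1%, 17.1%, 11% and 5.12% in that order. Those that fell were 18.1%, 8.81%, 10.6%, 14%, 9% and 3.49%. Ccne1, the cyclin E1 gene that drives entry into S phase, rose in all 6 comparisons, by 1.68, 3.32, 2.29, 2.02, 1.83 and 1.07 in that order. Ccnd2, the cyclin D2 gene, fell in all 6, with log2 fold changes from -2.09 at acute 7 d to -0.93 at acute 24 h. E2f1, a transcription factor held back by the pocket proteins, rose by 4.08 at acute 72 h, and it was 2.68 lower at chronic 72 h than at acute 72 h.

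Cdkn2a, whose transcripts encode the inhibitor p16 and the Mdm2 antagonist p19Arf, was hardly detected. It had no count in 16 of the 27 libraries and at most 13 counts in the other 11. Healthy libraries held 7, 8, 2 and 0 counts, and acute 72 h libraries 3, 13, 0 and 0. In chronic 24 h libraries the counts were 0, 0, 0 and 2, in chronic 72 h libraries 0, 0, 0 and 7, and in chronic 14 d libraries 0, 0, 4 and 0. A count of 0 allows a level of up to 3 counts, which is 0.23 to 0.475 CPM over the libraries, for counting error only. No group difference was detectable at this depth.

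Cdkn2b, the neighbouring inhibitor gene that encodes p15, was low but present in every library, with 34 to 153 counts. Healthy libraries held 9.07, 3.32, 8.00 and 5.98 CPM, and chronic 24 h libraries held 7.49, 11.1, 10.3 and 12.2 CPM. The ranges overlapped in 1 chronic library, replicate 1. The log2 fold change at chronic 24 h was 0.64 ± 0.27 (adjusted p = 0.0776), and it passed without that library (0.77, adjusted p = 0.046) or without healthy replicate 1 (0.83, adjusted p = 0.0364). In the other 5 comparisons with healthy it lay between -0.18 and 0.18.

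Of the other 4 inhibitor genes, Cdkn1b, Cdkn1c, Cdkn2c and Cdkn2d, none passed at acute 24 h, chronic 24 h or chronic 14 d. Cdkn1c, which encodes p57, fell at acute 72 h (log2 fold change -1.17, 38.3 ± 10.4 to 17.04 ± 3.37 CPM, SD) and rose at chronic 72 h (1.33, 95.9 ± 8.96 CPM). At 72 h it was higher after the course than after 1 injection by 2.49. Cdkn2c, which encodes p18, rose at acute 72 h (1.67, 27.4 ± 5.65 to 87.1 ± 34.8 CPM), at acute 7 d (1.04) and at chronic 72 h (0.75). Cdkn1b and Cdkn2d passed in none of the comparisons with healthy.

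Phlda3, which encodes a small membrane lipid-binding protein that restrains Akt, was the member with the steadiest difference. Healthy libraries held 88.9, 97.0, 102 and 80.7 CPM. Acute 24 h libraries held 218, 207 and 180 CPM, acute 72 h libraries 145, 153, 149 and 163 CPM, and acute 7 d libraries 164, 181, 193 and 173 CPM. Every library of these 3 groups was above every healthy one. The log2 fold changes were 1.13 ± 0.15 (SE, adjusted p = 5.15e-06), 0.73 ± 0.14 (adjusted p = 0.000677) and 0.95 ± 0.14 (adjusted p = 3.73e-05).

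After the course Phlda3 stood at 230, 205, 164 and 187 CPM in chronic 24 h and at 208, 183, 246 and 229 CPM in chronic 72 h libraries, again with no overlap with healthy. The log2 fold changes were 1.09 ± 0.14 (adjusted p = 3.32e-06) and 1.23 ± 0.14 (adjusted p = 1.905e-06). By chronic 14 d the libraries held 143, 118, 110 and 83.6 CPM and overlapped healthy in 1 library, replicate 4. The log2 fold change of 0.30 ± 0.14 did not pass (adjusted p = 0.195), and without that replicate it was 0.47 and passed (adjusted p = 0.0307). From chronic 72 h to chronic 14 d Phlda3 fell by 0.93 on the log2 scale (adjusted p = 0.00132), with no overlap, and the call was lost when only these 2 groups were fitted (-0.90, adjusted p = 0.0735).

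Between a repeated and a first injury, Phlda3 at 24 h had a log2 difference of -0.04 ± 0.15 and a 95% interval of -0.35 to 0.27. At 72 h it was higher after the course, by 0.51 ± 0.14 (adjusted p = 0.0174), with no overlap between the 4 and 4 libraries. The step from 24 h to 72 h was -0.41 after 1 injection (adjusted p = 0.0554) and 0.14 after the course (adjusted p = 0.571). The difference between these steps was 0.55 ± 0.21 and did not pass (adjusted p = 0.0952).

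**Figure D4:**
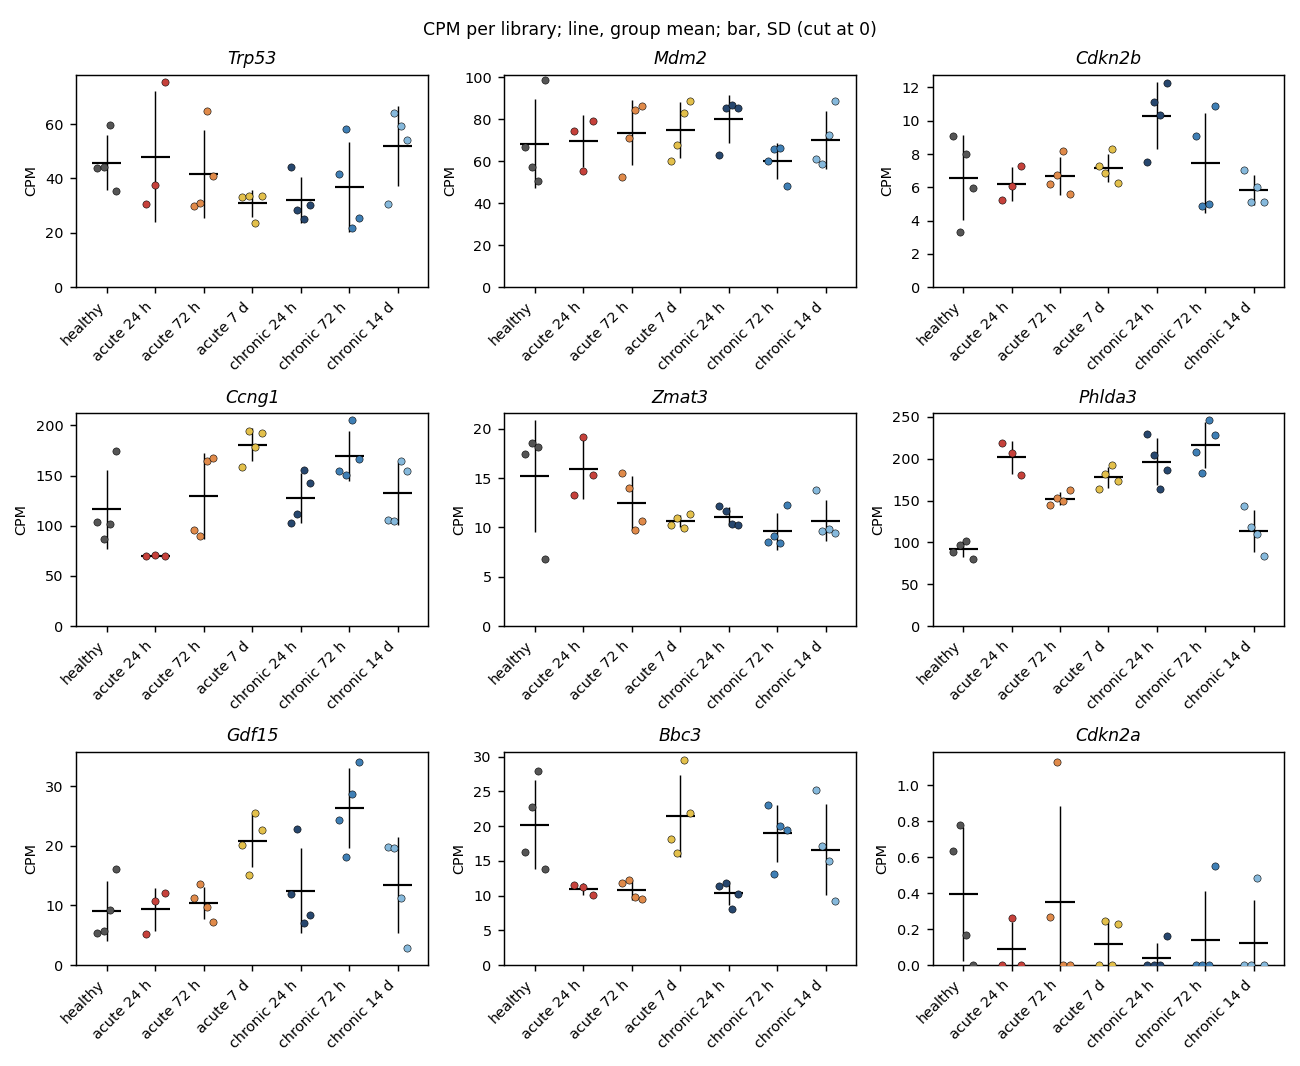
CPM of the members other than Cdkn1a in each library (points) by group, with the group mean as a line and its SD as a bar cut at 0; each panel has its own linear axis from 0. All Phlda3 points from acute 24 h to chronic 72 h lie above the healthy points, the 3 acute 24 h points of Ccng1 lie together near 70.2 CPM, and Cdkn2a is at 0 in 16 libraries.

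Ccng1, which encodes cyclin G1, a target of p53 that acts on Mdm2, moved in both directions after a single injection. Healthy libraries held 104, 86.5, 102 and 175 CPM, acute 24 h libraries 70.1, 70.7 and 69.8 CPM, and acute 7 d libraries 159, 195, 178 and 192 CPM. All acute 24 h libraries were below all healthy ones, and at acute 7 d healthy replicate 4 lay inside the injured range. Ccng1 fell by 0.73 ± 0.25 on the log2 scale at acute 24 h (adjusted p = 0.0239) and rose by 0.63 ± 0.22 at acute 7 d (adjusted p = 0.0435). The first call was lost without healthy replicate 4 (-0.47) or without acute 24 h replicate 1, 2 or 3 (-0.74 to -0.73). The second was lost without healthy replicate 1 (0.58), 2 (0.51) or 3 (0.57) or acute 7 d replicate 2 (0.60), 3 (0.64) or 4 (0.60). Fitting the 2 groups alone lost both calls (adjusted p = 0.0761 and 0.0631), as did fitting without a filter (0.0577 and 0.0523). The hepatocyte marker sum was lowest in the acute 24 h libraries and, among healthy ones, highest in replicate 4 (3280 CPM, against 499 to 932 CPM in the others). The cholangiocyte and mesothelial and the macrophage sums were highest at acute 7 d. The part of these cells in either result was not tested.

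From acute 24 h to acute 72 h Ccng1 rose by 0.89 ± 0.25 on the log2 scale (adjusted p = 0.0107), which was lost without acute 72 h replicate 3 (0.67) or 4 (0.67). Chronic 24 h libraries held 103, 112, 155 and 142 CPM and were higher than those of acute 24 h by 0.87 ± 0.25 (adjusted p = 0.0139), without overlap. That call was lost without acute 24 h replicate 2, at almost the same size (0.87, adjusted p = 0.0501). At chronic 72 h the libraries held 154, 151, 205 and 167 CPM, and the log2 fold change against healthy of 0.54 ± 0.22 did not pass (adjusted p = 0.0953). It was 0.80 and passed without healthy replicate 4 (adjusted p = 0.0104), and with the replicate number as a block it was 0.57 and passed (adjusted p = 0.0198).

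Bbc3 encodes PUMA, which opposes the survival proteins of the Bcl-2 family and starts apoptosis. It was low in 3 injured groups, those of 24 h after either course and of acute 72 h. Healthy libraries held 16.2, 22.7, 27.97 and 13.9 CPM, against 11.6, 11.2 and 10.0 CPM at acute 24 h, 11.9, 12.3, 9.75 and 9.45 CPM at acute 72 h and 11.4, 11.8, 8.07 and 10.2 CPM at chronic 24 h. No library of these 3 groups reached the lowest healthy one. Bbc3 fell by 0.89 ± 0.28, 0.90 ± 0.26 and 0.97 ± 0.26 on the log2 scale (adjusted p = 0.018, 0.0145 and 0.00644). The first call was lost without healthy replicate 3 (-0.69) or acute 24 h replicate 3 (-0.83), and the second without healthy replicate 3 (-0.70). Of 10 sinusoidal endothelial markers, 6, 9 and 6 were lower than healthy in the same 3 groups, against 1, 1 and 0 at acute 7 d, chronic 72 h and chronic 14 d. At acute 24 h and at acute 7 d, 1 of them rose. Their sum at acute 24 h (504 to 573 CPM) overlapped that of healthy libraries (506 to 976 CPM), whereas the sums at acute 72 h and chronic 24 h did not. The part of these markers in the result was not tested.

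At acute 7 d Bbc3 stood at 18.2, 16.2, 29.5 and 21.9 CPM and at chronic 72 h at 23.1, 13.1, 20.1 and 19.4 CPM. Both groups overlapped healthy, with 1 acute 7 d library just above and 1 chronic 72 h library just below the healthy range. It rose from acute 72 h to acute 7 d by 0.98 ± 0.26 (adjusted p = 0.0142), which was lost without acute 7 d replicate 3 (0.79, adjusted p = 0.0632). From chronic 24 h to chronic 72 h it rose by 0.87 ± 0.26 (adjusted p = 0.0239), which was lost without chronic 24 h replicate 3 (0.77) or 4 (0.90) or chronic 72 h replicate 1 (0.77). At 72 h it was higher after the course than after 1 injection by 0.80 ± 0.26 (adjusted p = 0.0376). This call held only without chronic 72 h replicate 2, was lost without each of the other 7 libraries (0.70 to 0.87), and was lost with depth class as a term (0.76, adjusted p = 0.102).

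Gdf15 encodes a secreted stress cytokine that p53 and also the stress factors ATF4 and CHOP can switch on. Healthy libraries held 5.35, 5.66, 9.27 and 16.2 CPM and chronic 72 h libraries 24.4, 18.1, 28.6 and 34.2 CPM. The groups did not overlap. Gdf15 rose at chronic 72 h by 1.53 ± 0.46 on the log2 scale (2.89-fold, adjusted p = 0.0193), a call lost without healthy replicate 1 (1.34) or 2 (1.36) or chronic 72 h replicate 4 (1.38). At acute 7 d, with 20.2, 15.2, 25.6 and 22.6 CPM, the log2 fold change was 1.19 ± 0.45 and did not pass (adjusted p = 0.0577), but it passed without healthy replicate 4 (1.63, adjusted p = 0.0152). It also passed in 4 of 9 alternative fits. These were DESeq2's test (adjusted p = 0.0378) and, in edgeR, library size alone (0.0353), deeper libraries only (0.0169) and the 2 groups alone (0.0445).

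At 24 h Gdf15 libraries overlapped healthy after either course, with 5.25, 10.8 and 12.1 CPM at acute 24 h and 11.8, 22.8, 7.02 and 8.40 CPM at chronic 24 h. Its log2 fold change at acute 24 h was 0.04 ± 0.49 (95% interval -0.97 to 1.04). At 72 h it was higher after the course than after 1 injection by 1.34 ± 0.45 (adjusted p = 0.0482), a call that was lost without any one of the acute 72 h libraries or of chronic 72 h replicates 1, 3 and 4 (1.19 to 1.49) with depth class as a term (1.23, adjusted p = 0.114) and with the replicate number as a block (1.36, adjusted p = 0.0622). Chronic 14 d libraries ranged from 2.94 to 19.9 CPM, the widest spread of Gdf15 in any group. At acute 7 d and chronic 72 h the macrophage sum and the cholangiocyte and mesothelial sum were above every healthy library, and the hepatocyte sum was above at least 3 of the 4. Their part in the result was not tested.

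Of 8 further genes of the ATF4 and CHOP response, 3 rose at acute 24 h, 3 at chronic 24 h and 1 each at acute 72 h, acute 7 d and chronic 14 d. None of the 8 passed at chronic 72 h, where Gdf15 was highest, and none fell at any time. Their median log2 fold change was 1.11, 0.24, 0.26, 0.36, 0.56 and 0.68 from acute 24 h to chronic 14 d. Over all genes the median at chronic 72 h was 0.00. Shares of all genes that rose were 15.5% at acute 24 h, 17.1% at chronic 24 h and 11% at chronic 72 h. Psat1, an enzyme of serine synthesis, rose at acute 24 h (2.96), acute 72 h (3.84), acute 7 d (1.29) and chronic 24 h (2.38). Atf4 itself rose at acute 24 h (1.5003) and chronic 24 h (0.68).

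Zmat3 encodes an RNA-binding zinc finger protein that acts on splicing in p53-dependent tumour suppression. Healthy libraries held 17.4, 18.5, 18.1 and 6.76 CPM, so that replicate 4 stood far below the others. Injured libraries held 13.3, 19.2 and 15.3 CPM at acute 24 h and 8.40 to 15.5 CPM in the 5 other groups. Its log2 fold change against healthy ran from 0.07 ± 0.25 at acute 24 h to -0.66 ± 0.24 at chronic 72 h (adjusted p = 0.052), and none passed. The chronic 72 h value passed in DESeq2's test (adjusted p = 0.0469). In edgeR it passed with the filter at a mean of 1 CPM (0.0419) or without chronic 72 h replicate 4 (-0.81, adjusted p = 0.0366). Without healthy replicate 4 Zmat3 passed as lower in the 5 groups other than acute 24 h, at -0.53 in acute 72 h, -0.76 in acute 7 d, -0.70 in chronic 24 h, -0.91 in chronic 72 h and -0.76 in chronic 14 d (adjusted p from 0.00117 to 0.0401). That library also held the highest hepatocyte marker sum, Ccng1, Mdm2 and Gdf15 of the healthy group.

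Beyond the members, 36 known p53 targets were read from 3 lists, and 34 of them were tested. At acute 24 h 5 rose and 12 fell, at acute 72 h 5 rose and 6 fell, at acute 7 d 11 rose and 6 fell, at chronic 24 h 6 rose and 7 fell, at chronic 72 h 9 rose and 4 fell, and at chronic 14 d 6 rose and 2 fell. The median log2 fold change was -0.02, 0.18, 0.36, 0.11, 0.39 and 0.12 in that order, beside -0.12, 0.00, 0.01, -0.03, 0.00 and -0.03 over all genes. Shares of all genes that rose were 15.5%, 13.1%, 13.1%, 17.1%, 11% and 5.12% in the same order. Those that fell were 18.1%, 8.81%, 10.6%, 14%, 9% and 3.49%. Rises and falls of the targets stood side by side at each time.

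**Figure D5:**
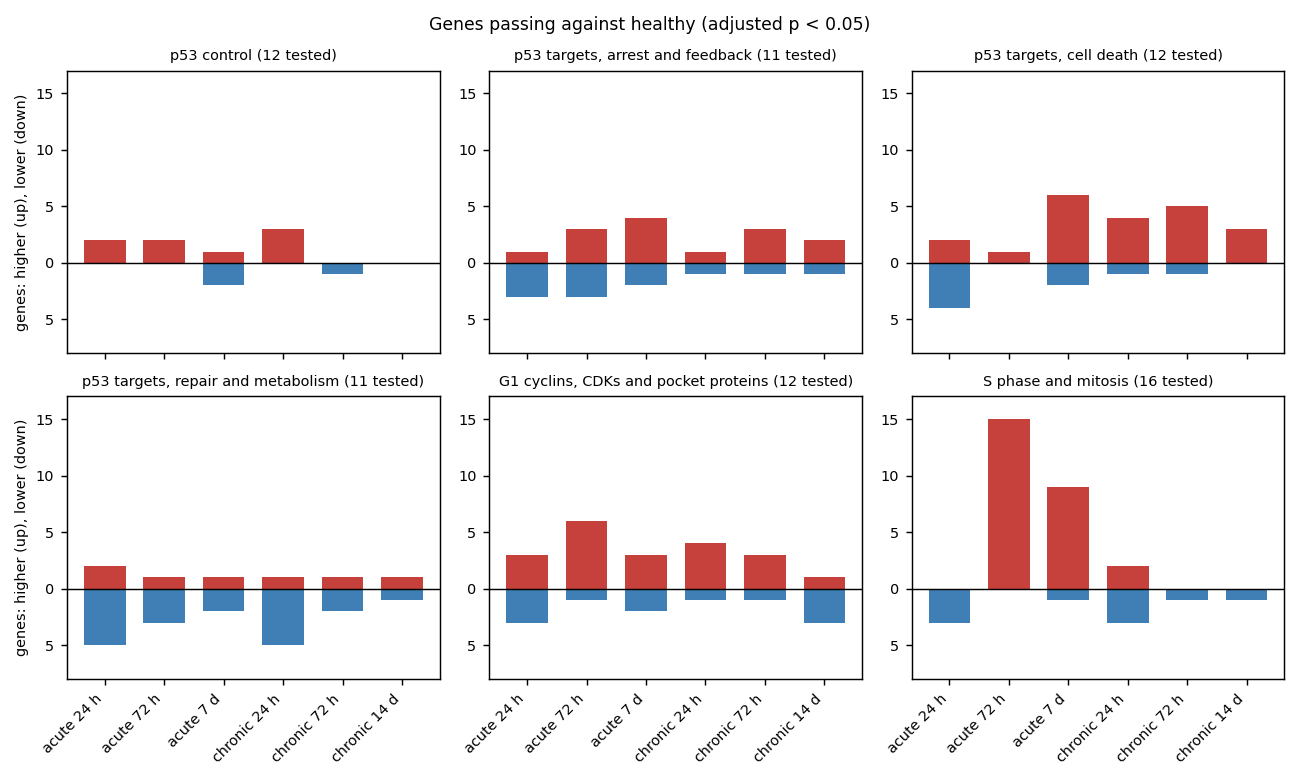
Number of genes higher (red, above 0) and lower (blue, below 0) than healthy at an adjusted p below 0.05 in 6 gene lists, for the 6 injured groups; the number tested is in each title. The p53 target lists hold genes in both directions at most times, and 15 of 16 S phase and mitosis genes rose at acute 72 h.

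Among 11 tested targets of arrest and feedback, Sesn1, a stress-induced regulator of growth signalling, fell at acute 24 h (log2 fold change -1.42) and rose at acute 7 d (1.34), chronic 72 h (1.36) and chronic 14 d (0.79). Its mean went from 32.5 ± 5.98 CPM (SD, n = 4) in healthy to 12.2 ± 0.332 CPM at acute 24 h and 83.1 ± 14.2 CPM at chronic 72 h. Btg2, an antiproliferative gene, fell in 5 of the 6 comparisons, by 0.88 at acute 24 h, and chronic 72 h was the exception. Gadd45a, a stress sensor that inhibits mitotic entry, fell at acute 72 h (-0.9955) and rose at chronic 72 h (1.23). Gtse1 and Psrc1, which are also genes of dividing cells, rose at acute 72 h (3.94 and 3.16) and acute 7 d (2.51 and 2.48), the times at which most S phase and mitosis genes rose.

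Among 12 tested targets of cell death, 2 rose and 4 fell at acute 24 h, 1 rose at acute 72 h, and 6 rose and 2 fell at acute 7 d. After the course 4 rose and 1 fell at chronic 24 h, 5 rose and 1 fell at chronic 72 h and 3 rose at chronic 14 d. Of all genes, 15.5%, 13.1%, 13.1%, 17.1%, 11% and 5.12% rose in that order of groups, and 18.1%, 8.81%, 10.6%, 14%, 9% and 3.49% fell. The list's median log2 fold change was -0.02, 0.44, 0.95, 0.76, 0.94 and 0.99 in that order. Bax, the pore-forming apoptosis gene, rose at acute 24 h (1.38, 27.5 ± 4.15 to 71.6 ± 14.4 CPM), while Pmaip1 (Noxa, -1.41) and Bcl2l11 (Bim, -1.28), relatives of Bbc3, fell. Pmaip1 rose at acute 7 d (2.89), chronic 24 h (1.58), chronic 72 h (2.01) and chronic 14 d (2.004), and Bcl2l11 rose at the same times (1.76, 1.003, 2.02 and 1.68). Fas, a death receptor gene, rose at those 4 times too (1.65, 1.14, 1.35 and 1.27). At chronic 24 h, Bbc3 fell while these 3 genes rose. The macrophage, the lymphocyte and neutrophil, and the cholangiocyte and mesothelial sums were on average highest in the same 4 groups, and their part in these results was not tested.

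Among 11 tested targets of repair and metabolism, falls were as many as or more than rises at each time. At acute 24 h 2 rose and 5 fell, where 15.5% of all genes rose and 18.1% fell. At chronic 24 h 1 rose and 5 fell, where 17.1% of all genes rose and 14% fell. The list's median log2 fold change was 0.25, 0.07, 0.03, -0.44, 0.02 and 0.06 from acute 24 h to chronic 14 d. Xpc, which recognises DNA lesions for nucleotide excision repair, fell in all 6 comparisons, from 198 ± 31.8 CPM in healthy to 42.6 ± 2.29 CPM at acute 24 h (-2.21) and 38.1 ± 6.39 CPM at chronic 24 h (-2.38). It was still lower at chronic 14 d (-0.72). Rrm2b, a ribonucleotide reductase subunit, fell in all but chronic 14 d (-1.49 at acute 24 h and -1.78 at chronic 24 h). Ak1, an adenylate kinase gene, rose in all 6 comparisons, by 1.82, 2.63, 3.36, 4.04, 3.00 and 1.91 from acute 24 h to chronic 14 d. Ddit4, an inhibitor of mTOR signalling, rose at acute 24 h alone among the tests that passed (2.48, 33.1 ± 15.4 to 185 ± 38.0 CPM).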

How the data were processed

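RNA-seq of sorted murine HSCs was read from 1 table of raw gene counts, which the authors deposited for all 27 libraries. Per the methods and the submitters' processing notes, single-end reads were checked and trimmed, aligned to GRCm38 with STAR and quantified with StringTie. Tool versions, strand use, the annotation release and the step from assembly to counts are not given in the sources used here. Without strand, reads of Cdkn1a and of a gene model annotated on the opposite strand cannot be told apart.

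Libraries were grouped by their labels. Of 53379 genes, 18758 passed filterByExpr by group (minimum count 10). Counts were scaled by TMM and tested in edgeR 4.0.16 (R 4.3.3) with the quasi-likelihood test, robust fitting and 1 mean per group over all 27 libraries, with Benjamini-Hochberg adjustment over all genes tested. CPM are counts scaled by library total and TMM factor. Fold changes are fitted log2 values, ± gives the SE for these and the SD for CPM, and intervals are 95%. The study's methods describe the repeats as separate experiments. The labels do not tie libraries to animals, so the p-values measure the spread between these samples. Within groups, no library pair agreed within sampling noise (39 pairs, chi-square per degree of freedom 15.5 to 82.1). Scripts were tested on simulated data with known fold changes.

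The members and lists were chosen with earlier results of these data known. Named are the 10 members, from each list up to 4 passing genes with the largest absolute log2 fold change and counts of 5 or fewer, and the 5 genes nearest to a member that spans at least 2 log2 units over groups. Sequences came from RefSeq windows of GRCm38.p6. The alternatives were DESeq2 1.42.0 (size factors, and its test), library size alone, no filter, a mean of at least 1 CPM, the replicate number as a block, depth class (the 8 shallower libraries or not) as a term, deeper libraries only, the 2 groups alone, other thresholds and leaving out each library.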

Additional observations from a re-analysis of the deposited data

Results flagged for a closer look

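In 54 sets of 4 libraries, 1 for each of the 9 tested members in each of the 6 groups of that size, 4 held a library whose gap to the nearest other was over 0.829 of the group's range, and chance gives about 1 in 20 such groups. Mdm2 was 62.8 CPM in chronic 24 h replicate 1, against 85.4 to 87.1 CPM in the other 3. Trp53 was 23.5 CPM in acute 7 d replicate 3, against 33.0 to 33.6 CPM in the other 3. Zmat3 was 6.76 CPM in healthy replicate 4, against 17.4 to 18.5 CPM in the other 3, and 13.8 CPM in chronic 14 d replicate 1, against 9.40 to 9.86 CPM in the other 3.

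The step of Cdkn1a from 24 h to 72 h differed between the courses, by 3.67 on the log2 scale (chronic minus acute, adjusted p = 0.0236 in edgeR's test of the interaction). Without acute 24 h replicate 2 the difference was 1.76 (adjusted p = 0.272).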

How the results depend on the processing

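No member turned direction past the threshold under any alternative or without any library. Of 1260 values under alternative settings, 1184 kept direction and side of the threshold, 28 lost the call and 28 gained it. In the other 20 the fold change turned sign without passing in either fit. Leaving out 1 library kept 858 of 972, with 40 calls lost, 14 gained and 60 such turns of sign. The cause was not tested for any of these.

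Requiring also more than 2-fold left 2 members at acute 24 h, 0 at acute 72 h, 0 at acute 7 d and 1 at chronic 24 h against healthy. It left 1 for chronic 24 h against acute 24 h, 1 for chronic 72 h against acute 72 h, 1 from acute 24 h to acute 72 h, and 0 from acute 72 h to acute 7 d, from chronic 24 h to chronic 72 h and from chronic 72 h to chronic 14 d. Without a filter 2 passed at acute 24 h, 1 at acute 7 d, 1 for chronic 72 h against acute 72 h and 0 for the difference between the steps. At an adjusted p below 0.1, 4 passed at chronic 72 h and 2 for the steps. Library size alone gave 1 at chronic 14 d and moved the median of all genes by over 0.1 in 6 comparisons, by up to 0.17. Depth class as a term gave 1 for chronic 72 h against acute 72 h. The 2 groups alone gave 2 from acute 72 h to acute 7 d and 0 from chronic 72 h to chronic 14 d. Deeper libraries alone gave 2 from chronic 24 h to chronic 72 h, and DESeq2 gave 2 for the steps. DESeq2 also gave 3 in place of 2 at acute 7 d, at chronic 72 h and from acute 24 h to acute 72 h.

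Leaving out each library in turn gave 2 to 4 members at acute 24 h, 1 to 3 at acute 72 h, 1 to 4 at acute 7 d, 2 to 3 at chronic 24 h, 1 to 4 at chronic 72 h and 0 to 1 at chronic 14 d. It gave 1 to 2 for chronic 24 h against acute 24 h, 1 to 3 for chronic 72 h against acute 72 h, 1 to 2 from acute 24 h to 72 h, 0 to 1 from acute 72 h to 7 d, 0 to 2 from chronic 24 h to 72 h, 1 from chronic 72 h to 14 d and 0 to 2 for the steps.

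Libraries of different groups share only a replicate number: their deviations correlated at a median of 0.0135 for the same number (-0.172 to 0.19, 78 pairs) and of -0.0031 for different numbers. With the number as a block, 2 members passed from acute 72 h to acute 7 d in place of 1, Ccng1 being gained (0.54, adjusted p = 0.0385). Ccng1 was also gained at chronic 72 h against healthy (0.57), and Gdf15 was lost for chronic 72 h against acute 72 h (1.36). The block changed no other member's call.

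Depth limits the values of Cdkn2a, for which 16 libraries held no count.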

Other observations

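Of 11 genes often read as signs of senescence, 4 rose and 2 fell at acute 24 h, 5 rose at acute 72 h, 4 rose and 1 fell at acute 7 d, 6 rose and 1 fell at chronic 24 h, 3 rose and 1 fell at chronic 72 h and 1 rose and 1 fell at chronic 14 d (edgeR, against healthy). Shares of all genes that rose were 15.5%, 13.1%, 13.1%, 17.1%, 11% and 5.12% in the same order. Those that fell were 18.1%, 8.81%, 10.6%, 14%, 9% and 3.49%. Plaur, the urokinase receptor gene, rose in all 6 comparisons, from 2.36 ± 1.45 CPM (SD, n = 4) in healthy to 147 ± 18.9 CPM at acute 24 h (n = 3) and 77.3 ± 19.2 CPM at chronic 24 h (n = 4). The log2 fold changes of Plaur were 5.95 and 5.03, and 2.52 at chronic 14 d. Mmp3, a matrix protease gene, rose at the same 24 h times by 6.09 and 5.40. Il6, a cytokine gene, rose at chronic 24 h (2.38) and chronic 72 h (1.68). Lmnb1, a nuclear lamina gene that is usually low in senescent cells, rose at acute 72 h by 3.07, from 7.25 ± 1.01 to 60.8 ± 25.4 CPM. Cdkn2a, a member read in the same way, had 0 to 13 counts per library.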
